A study of Gossypium hirsutum with 3 samples.

Results

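TMIRS_107_G05.F and Contig17143 are 2 cotton (Gossypium hirsutum) transcripts that the study's additional file describes by a database match as proteins of the protease inhibitor/seed storage/lipid transfer family. The text of the study instead lists Contig17143 with regulatory genes, among kinases, calmodulin and lumen receptors, and the arrays do not settle which name is right. They were chosen by their higher signal in 10 dpa fiber than in 1 dpa fiber (dpa, days post anthesis) and by this description, so that their ratios between these stages are given below as a description, with no test. They are 2 of 11143 genes on a custom array, and 5 of its 40372 probes belong to them. TMIRS_107_G05.F has 1 probe (210103_2) printed as 3 spots, and Contig17143 has 4 probes (206673_1 to 206673_4), each printed once. The names of the Contig17143 probes carry a prefix RC_, whose meaning the sources used here do not give.

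The 3 arrays each carried labelled cDNA of 10 dpa fiber, which is elongating, and of 1 dpa fiber, which is initiating, so every array gives its own ratio. All plants were grown in the field, and the methods name the cultivars DES119 and ST4793R without assigning them to samples. Fiber of 10 dpa was dissected from the ovule. Fiber of 1 dpa was shaken off frozen ovules of pooled bolls with glass beads, which collects what protrudes from the ovule surface. The methods and the extraction label describe polyribosomal RNA, while the source labels say total RNA. On replicates 1 and 3 10 dpa fiber was labelled with Cy5 (red) and 1 dpa fiber with Cy3 (green), and on replicate 2 the dyes were exchanged. Replicate numbers only name the arrays. The methods describe 3 biological replications of each stage, from different harvest days. The files, however, code 2 RNAs of each stage. The 10 dpa code is the same on replicates 1 and 3, and the 1 dpa code on replicates 1 and 2. Arrays with a shared code may thus share an RNA, and the spread between arrays may be in part technical. The labels do not settle which account holds.

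Lipid transfer proteins are small secreted proteins of plants. A conserved set of cysteines is paired in disulfide bonds around a hydrophobic cavity, which can hold fatty acids and other lipids. They are known from the epidermis, where they lie in the cell wall and at the cuticle, and their mRNAs are among the abundant transcripts of elongating cotton fiber. The same fold is found in seed storage albumins and in cereal inhibitors of proteases and amylases, hence the long family name. No probe sequence was in the sources used here.

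Over the 3 arrays, gene spots had a median intensity between 234 and 357 in 10 dpa fiber, against 222 to 362 for 1 dpa fiber. All 6 fiber genes used as markers (GhRDL, the tubulin GhBM356393, MYB2, MYB109, GhACY and GhFDH) were above the limit set by the 314 negative control spots (their 95th percentile in each channel) on every spot and array, at both stages. This limit was low: on some spot, stage and array 11110 of the 11143 genes passed it. Passing it thus does not mark a gene as a fiber gene. The share of genes that passed it on every spot was not counted. No marker of other ovule cells was among the descriptions used, so the share of such cells was not measured. Taken over genes, replicate 1 stood apart in its log2 ratios, with r = 0.575 to replicate 2 and 0.601 to replicate 3, whereas r between replicates 2 and 3 was 0.839. Genes are no independent replicates. For TMIRS_107_G05.F and Contig17143 the means without replicate 1 are given beside those over all arrays.

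The signal of TMIRS_107_G05.F was high in 10 dpa fiber and low, though above the negative controls, in 1 dpa fiber. On replicate 1 its 3 spots had uncorrected intensities of 2275, 2760 and 3219 in 10 dpa fiber, against 393, 384 and 502 in 1 dpa fiber. On replicate 2 they had 920, 1287 and 1382 in 10 dpa fiber, against 176, 282 and 299 in 1 dpa fiber. On replicate 3 they had 799, 1183 and 1184 in 10 dpa fiber, against 110, 164 and 149 in 1 dpa fiber. The lowest 10 dpa spot of each array was thus above the highest 1 dpa spot of that array. Every reading was above the negative-control limit of its channel. In 10 dpa fiber the spots were 10.9 to 43.9 times the median negative control, and in 1 dpa fiber 1.32 to 4.76 times. The lowest of these, 1.32, was a 1 dpa reading on replicate 3, where the negative-control limit was 92.2. The median negative control differed between channels. It was 73.2, 84.5 and 62.9 in the 10 dpa channel on replicates 1 to 3, against 163.8, 62.9 and 83.7 in the 1 dpa channel. The multiples of the stages therefore do not give the ratio between them.

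The signal of Contig17143 was well above the negative controls in both stages. Its probe 206673_1 had intensities of 2719, 2686 and 1747 in 10 dpa fiber on replicates 1 to 3, against 641, 855 and 569 in 1 dpa fiber. Probe 206673_2 had 7754, 3796 and 3054 in 10 dpa fiber, against 2022, 1724 and 909 in 1 dpa fiber. Probe 206673_3 had 10847, 3465 and 2688 in 10 dpa fiber, against 2437, 1577 and 735 in 1 dpa fiber. Each of these probes was brighter in 10 dpa fiber on all arrays, with no array on which the stages crossed. Probe 206673_4 had 31768, 11996 and 14161 in 10 dpa fiber, against 6344, 4081 and 2659 in 1 dpa fiber. Its 31768 was the highest reading of both genes, below the highest intensities on the arrays (65085 to 65148). Over all 4 probes the readings were 27.8 to 434 times the median negative control in 10 dpa fiber and 3.91 to 64.9 times in 1 dpa fiber. Here too the median differed between channels, so these multiples do not give the ratio between stages. In all, 21 of 21 readings of the 2 genes passed the negative-control limit in 10 dpa fiber and 21 of 21 in 1 dpa fiber. Of all 11143 genes, 11110 passed it on some spot, stage and array.

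**Figure D1:**
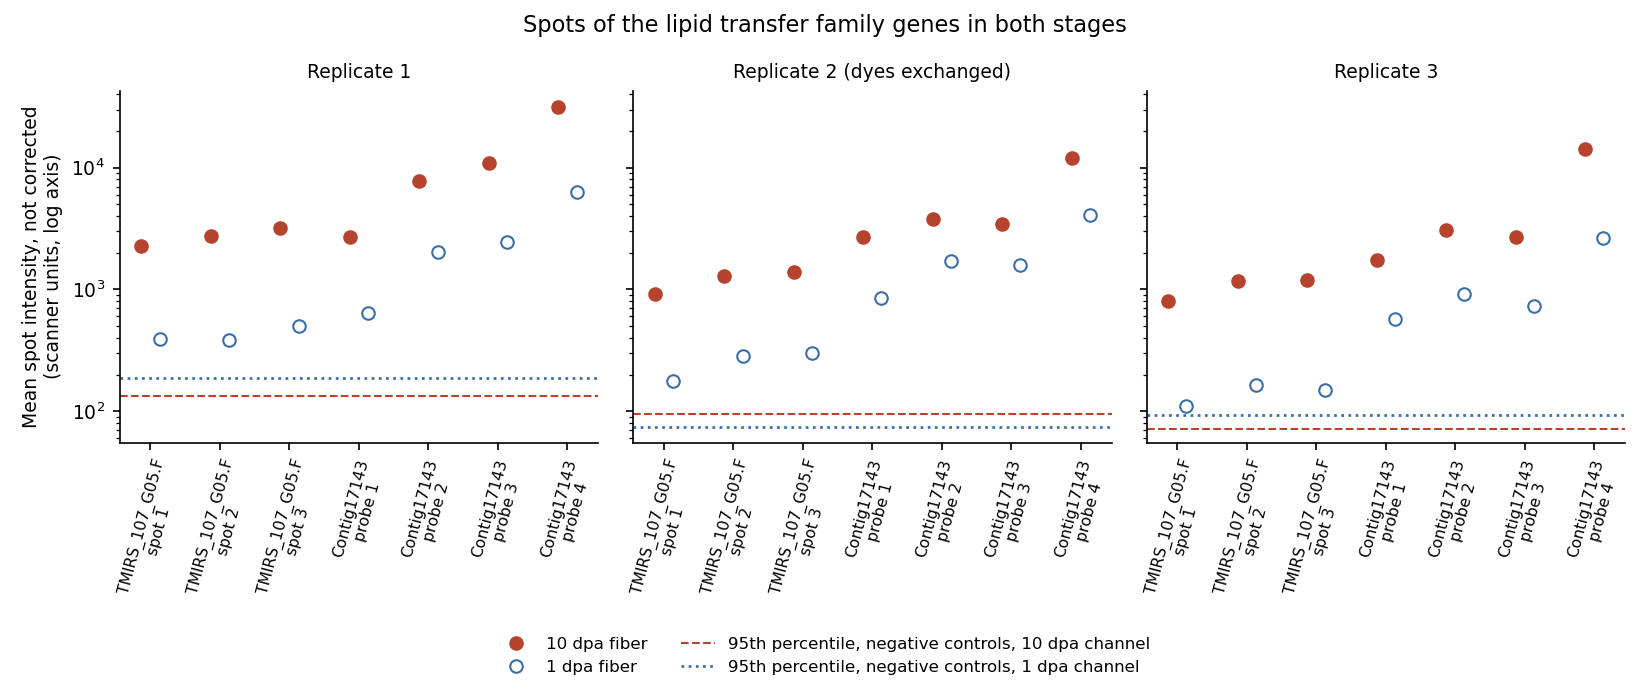
Uncorrected mean intensity (log axis, scanner units) of the 7 spots of TMIRS_107_G05.F and Contig17143 on each of the 3 arrays, with 10 dpa fiber as filled points, 1 dpa fiber as open points and the negative-control limit of each channel as lines. Probes 1 to 4 of Contig17143 are 206673_1 to 206673_4. The 10 dpa point lies above the 1 dpa point for every spot, and the 1 dpa points of TMIRS_107_G05.F on replicate 3 (110, 164 and 149) lie nearest to the line, which is at 92.2.

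The uncorrected intensity ratio of 10 dpa over 1 dpa fiber was 4.57 to 7.94 over the 9 readings of TMIRS_107_G05.F and 2.20 to 5.33 over the 12 readings of Contig17143. Background was then removed by normexp in limma (offset 50), which leaves every intensity above 0, and loess took out any trend of the ratio with brightness on each array. The log2 ratio of TMIRS_107_G05.F was 2.53, 2.64 and 2.89 on replicates 1 to 3, with a mean of 2.69 ± 0.19 (SD, n = 3 arrays) or 6.44-fold. The log2 ratio of Contig17143 was 1.43, 1.90 and 1.60 on the same arrays, a mean of 1.64 ± 0.23 (SD, n = 3 arrays) or 3.12-fold. TMIRS_107_G05.F thus had the higher ratio on each array, by 1.10, 0.74 and 1.29 on the log2 scale. In these bulk samples more RNA per cell and more cells that carry the RNA cannot be told apart. The way the fiber was isolated changed with the stage, so stage and isolation cannot be told apart either. Ranked from the highest mean log2 ratio, TMIRS_107_G05.F was number 19 and Contig17143 number 138 of the 11143 genes, whose median was -0.04. Over the alternatives the rank of TMIRS_107_G05.F ran from 17 to 24 and that of Contig17143 from 108 (without replicate 1) to 258 (negative controls subtracted). Without replicate 1 the means were 2.76 for TMIRS_107_G05.F and 1.75 for Contig17143. The study also lists PCR primers for Contig17143. No PCR result was used here, so its ratio rests on the arrays alone.

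**Figure D2:**
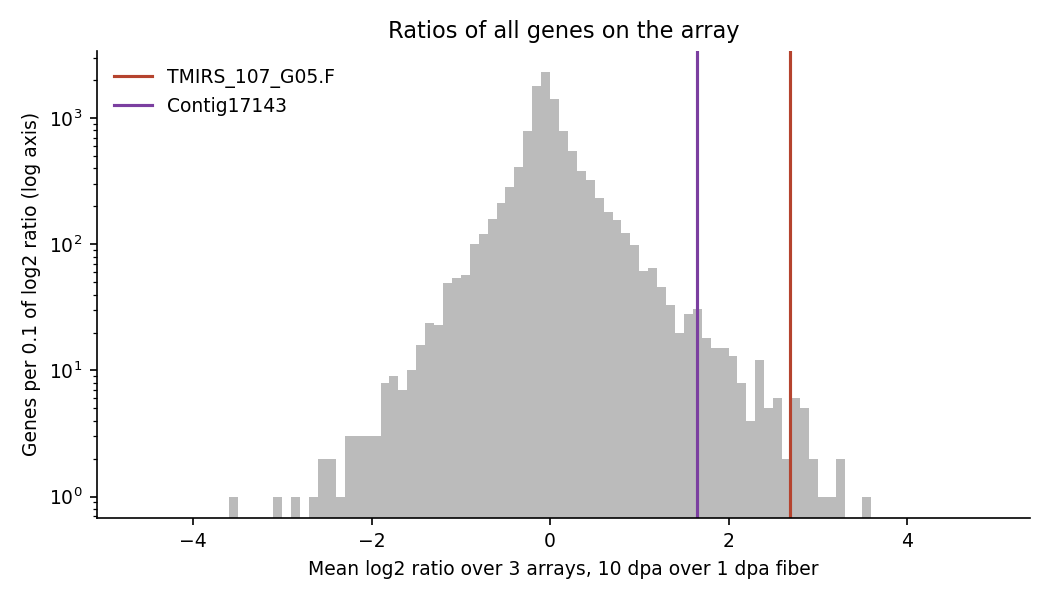
Number of genes (log axis) by their mean log2 ratio of 10 dpa over 1 dpa fiber over 3 arrays, in steps of 0.1, for all 11143 genes on the array. The lines mark TMIRS_107_G05.F at 2.69 and Contig17143 at 1.64, both in the upper tail of the distribution, whose median is -0.04.

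The probes of Contig17143 gave similar ratios. Probe 206673_1 had log2 ratios of 1.79, 2.13 and 1.38 on replicates 1 to 3 (mean 1.77, 3.40-fold). Probe 206673_2 had 1.24, 1.66 and 1.44 (mean 1.45, 2.73-fold), and probe 206673_3 had 1.37, 1.65 and 1.59 (mean 1.54, 2.90-fold). Probe 206673_4 had 1.33, 2.15 and 1.98 (mean 1.82, 3.54-fold). The order of the probes differed between arrays: 206673_1 was the highest on replicate 1 and the lowest on replicate 3, and 206673_4 was the highest on replicates 2 and 3. The means of the 4 probes lay between 1.45 and 1.82. The SD of a probe over the arrays ran from 0.14 for 206673_3 to 0.43 for 206673_4. The SD between the 4 probes, averaged over the arrays, was 0.27, and 49.7% of the 8604 genes with 4 probes had a lower one. For TMIRS_107_G05.F the SD between the 3 spots of its 1 probe was 0.11, and 69% of the 831 genes printed in this way had a lower one. These 3 spots repeat 1 oligonucleotide, so the gene has no second probe to compare with. A positive ratio on all 3 arrays was seen for all 5 probes of the 2 genes and for 20.6% of all probes on the array. The genes were chosen on these ratios, so nothing is read from that share.

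**Figure D3:**
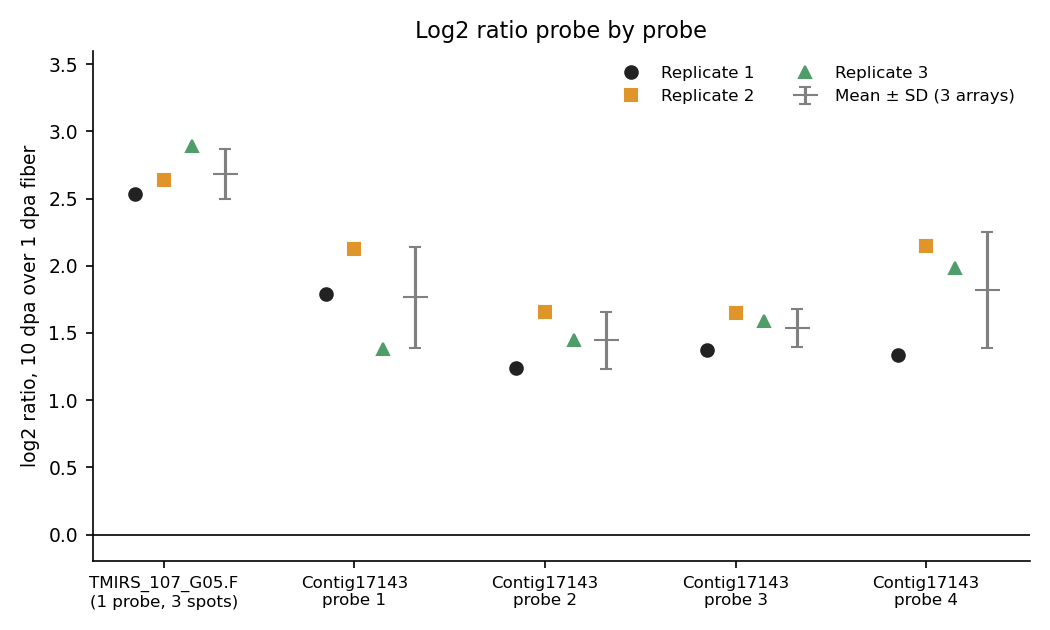
Log2 ratio of 10 dpa over 1 dpa fiber for the 1 probe of TMIRS_107_G05.F (mean of its 3 spots) and the 4 probes of Contig17143, on each of the 3 arrays (points) and as mean ± SD over the arrays (grey). All ratios lie above 1, those of TMIRS_107_G05.F between 2.53 and 2.89 and the probe means of Contig17143 between 1.45 and 1.82.

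Levels in each stage were compared for each gene after the arrays were brought to a common brightness distribution. The log2 level of TMIRS_107_G05.F was 10.87, 10.34 and 10.23 in 10 dpa fiber on replicates 1 to 3, against 8.34, 7.71 and 7.34 in 1 dpa fiber. Its levels varied between arrays (SD 0.34 in 10 dpa fiber and 0.51 in 1 dpa fiber), but the lowest 10 dpa level was 1.89 above the highest 1 dpa level. The log2 level of Contig17143 was 12.28, 12.48 and 12.13 in 10 dpa fiber, against 10.84, 10.59 and 10.53 in 1 dpa fiber. Its SD was 0.18 in 10 dpa fiber and 0.16 in 1 dpa fiber, and the stages were 1.29 apart at their nearest. The stages did not overlap either for the other genes described as lipid transfer proteins, with a gap of only 0.12 for Contig14170. These gaps are of means over probes, and probes of Contig14170 differed in sign on replicates 1 and 3. How many of all genes have such a gap was not counted. The 2 genes were chosen on this contrast, so nothing is read from their gaps. The levels of the 2 genes come from different probes and were not compared with each other.

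The size of both ratios, but not their sign, depended on the processing. With the median of the negative controls subtracted from each channel and the arrays centred on their medians, a setting added after the data were seen, TMIRS_107_G05.F had a log2 ratio of 3.26 ± 0.62 (SD, n = 3 arrays), or 9.61-fold. Contig17143 had 1.77 ± 0.07 under this setting, or 3.41-fold. Under this setting TMIRS_107_G05.F moved most on replicate 3, where it had 3.96 instead of 2.89 and where its 1 dpa spots were nearest to the negative controls. With no background correction its mean was 2.57, or 5.96-fold. Scaling between arrays gave TMIRS_107_G05.F 1.47, 3.15 and 4.18 on replicates 1 to 3, and Contig17143 0.83, 2.26 and 2.31, with replicate 1 the lowest for both genes. For Contig17143 the choice between loess and median centring changed which array was highest: with loess replicate 2 was highest (1.90) and replicate 1 lowest (1.43), and with median centring replicate 1 was highest (2.08) and replicate 2 lowest (1.58). Its mean was 1.84, or 3.58-fold, with median centring. Replicate 2, the array with exchanged dyes, had a log2 ratio 0.38 above the mean of the other arrays for Contig17143 and 0.08 below it for TMIRS_107_G05.F after loess. With 1 such array, dye and replicate cannot be told apart.

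**Figure D4:**
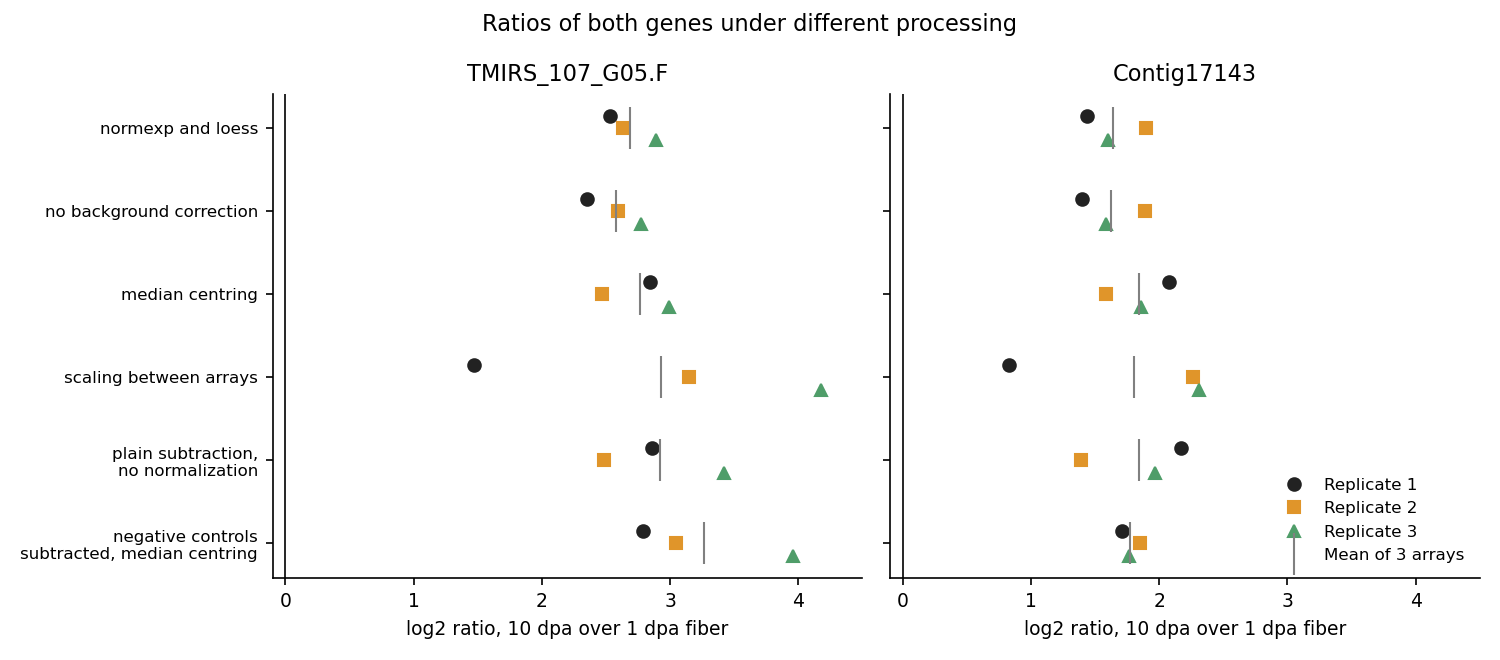
Log2 ratio of 10 dpa over 1 dpa fiber of TMIRS_107_G05.F (left) and Contig17143 (right) on each of the 3 arrays (points) and as their mean (grey bar) under 6 ways of correcting and normalizing the intensities. Every point lies above 0, the means of TMIRS_107_G05.F run between 2.57 and 3.26 and those of Contig17143 between 1.62 and 1.84, and scaling between arrays spreads the arrays most.

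The additional file describes 3 further genes on the array as lipid transfer proteins. The study chose them on these samples, for a change between fiber stages or between 1 dpa fiber and ovules, so their direction is not independent evidence. With limma and an adjusted p under 0.05 over all 11143 genes, 2 of the 3 rose in 10 dpa fiber and 0 fell, where 8.03% of all genes were higher and 5.61% lower. These shares are 895 higher and 625 lower genes, against 512 and 191 where arrays were centred on their medians without loess. The median log2 ratio of the 3 genes was 1.09, against -0.04 for all genes. By the same fit 3 of the 3 had an unadjusted p under 0.05, as did 2773 of all genes (24.9%). Only 1036 of the 11143 genes had a description, so the set of all genes is no like comparison. Nothing is therefore read from these counts or from this median.

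Contig16792, described as a putative lipid transfer protein, had log2 ratios of 1.94, 2.51 and 1.00 on replicates 1 to 3. Its mean of 1.82 ± 0.76 over the 3 arrays (SD; limma, adjusted p = 0.0101), or 3.53-fold, was near that of Contig17143 (1.64), but its arrays lay farther apart. With the negative controls subtracted Contig16792 had 2.87 and Contig17143 1.77, so that the nearness depended on the processing. All 4 of its probes were lowest on replicate 3, where 201866_1 had 0.45, a probe that in 1 dpa fiber passed the negative-control limit on 1 of 3 arrays. Contig3155, of the same family description as the 2 genes, had log2 ratios of 0.95, 0.93 and 1.37, and its mean was 1.09 ± 0.25 over the 3 arrays (SD; limma, adjusted p = 0.00631), or 2.12-fold. Its probes fell into pairs, unlike those of Contig17143. In Contig3155, 207464_4 and 207464_2 averaged 2.08 and 2.07, while 207464_3 averaged 0.02 and 207464_1 averaged 0.17. Probe 207464_1 passed the negative-control limit on 1 of 3 arrays in each stage, whereas 207464_3 was bright, with 9801, 5150 and 7326 in 10 dpa fiber, against 7177, 7467 and 3935 in 1 dpa fiber. Contig14170, of the same family description, had log2 ratios of 0.48, 0.56 and 0.21, and its mean of 0.42 ± 0.18 over the 3 arrays missed the threshold (SD; limma, adjusted p = 0.1). Its probes disagreed in sign. On replicate 1, 206031_4 and 206031_3 had -0.29 and -0.14, against 0.66 for 206031_2 and 1.68 for 206031_1. On replicate 3, 206031_1 had -0.06, while the others were positive. After scaling between arrays limma called 0 of the 3 genes (3 with an unadjusted p under 0.05, as had 2699 of all genes), and an F-test of each gene alone called 0 (1 unadjusted, as had 1811 of all genes).

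**Figure D5:**
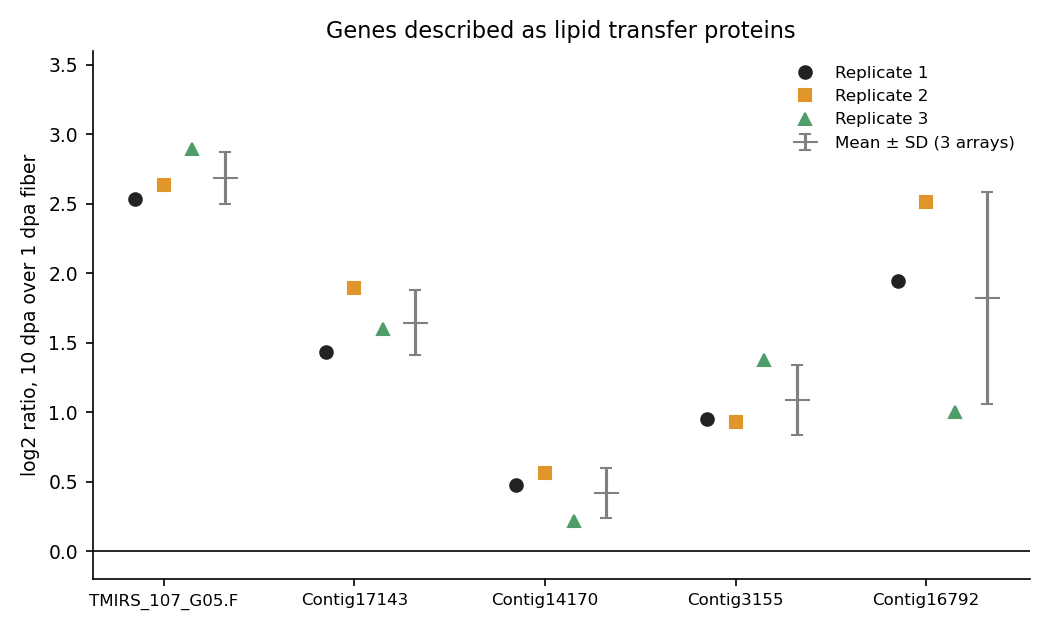
Log2 ratio of 10 dpa over 1 dpa fiber for the 5 genes described as lipid transfer proteins, on each of the 3 arrays (points) and as mean ± SD over the arrays (grey). The means run from 2.69 for TMIRS_107_G05.F to 0.42 for Contig14170, and Contig16792 has the widest spread between arrays (SD 0.76).

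Very-long-chain lipids are components of the cuticle, the layer at which lipid transfer proteins are found, and 8 genes of their synthesis and of the cuticle were described in the additional file. By the same limma test 2 of these rose and 4 fell, with 2 on neither side. Over all genes 8.03% were higher and 5.61% lower. The median log2 ratio of the 8 genes was -0.62, against -0.04 for all genes. Apart from GhFDH, which was put on the array as a benchmark gene, these genes too were selected by the study on its own arrays. Nothing is therefore read from their counts. The largest rises were those of the ketoacyl-CoA synthases Contig219 (log2 ratio 1.65 ± 0.24, SD, n = 3 arrays, a weak database match) and Contig210 (0.81 ± 0.46). The largest falls were those of TMIRS_036_H05.F, a CER1-like gene of wax synthesis (-2.49 ± 0.13), and of Contig2915, matched to a fatty acid elongase (-2.29 ± 0.08, and -2.97 with the negative controls subtracted). Contig210 had a reading of 65147 in 10 dpa fiber, at the top of the scanner's range. The call for Contig210 (limma, adjusted p = 0.0407) was lost under 7 of 13 alternatives, among them leaving out replicate 2 or replicate 3.

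The genes with the most similar ratios were found among the 1034 other genes described in the additional file, by the Euclidean distance between the log2 ratios on the 3 arrays. Nearest to TMIRS_107_G05.F were Contig3986, an auxin-binding protein (distance 0.22), and Contig6612, a gamma tonoplast intrinsic protein, which lets water into the vacuole (0.22). They were followed by a putative family II lipase (0.24), R12F_04R_E10_InvR_09Aug04_072.ab1, matched to a protein tyrosine kinase (0.31), and TMIRS_222_G06.F, a putative ubiquitin (0.31). Nearest to Contig17143 were Contig3193, of unknown function (0.12), and Contig1846, a serine carboxypeptidase-like protein, of a family of protein-processing enzymes (0.23). Contig9533, of unknown function (0.24), Contig16061, an expansin, a protein that loosens the cell wall (0.24), and Contig6396, matched to an unnamed rice protein (0.25), came next. TMIRS_107_G05.F and Contig17143 were 1.85 apart. A likeness over 3 arrays rests on the size of the ratio and describes these arrays only.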

How the data were processed

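The authors labelled RNA with Cy3 or Cy5, had the arrays scanned by a company and deposited mean spot and local background intensity values of both channels, quantified with Agilent Feature Extraction (version not given in the sources used here), not corrected or normalized. A deposited table of log2 ratios of red over green equals plain background subtraction of these intensities, uncentred and with the dye swap not turned. Its row numbers match no probe column, so it served only to check scale and dye direction. Control spots (2256) had weight 0 in loess. Spots were averaged to probes and probes to genes, and 2 spots with variant names were joined to their gene. For all 11143 genes the mean ratio, turned to 10 dpa over 1 dpa, was set against 0 in limma 3.58.1 (lmFit, eBayes; R 4.3.3), and p-values were adjusted by Benjamini-Hochberg. Levels per stage used Aquantile scaling. The 2 genes and the gene lists were chosen with earlier results of these data known. Genes named beside them are all others described as lipid transfer, the 2 largest rises and falls of the cuticle list, and the 5 most alike. The methods' ANOVA needs ovule arrays, which were not analysed here. The number of arrays limits the precision. Descriptions come from the study's additional file, and 0 of the 11143 array gene names matched the RefSeq gene table of assembly Gossypium_hirsutum_v2.1 used here, so no coordinates are given.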

Additional observations from a re-analysis of the deposited data

How the results depend on the processing

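The log2 ratios of both genes were positive under all 11 alternatives. That of Contig17143 ran from 1.52 to 1.84, always within 1 SD of its value. That of TMIRS_107_G05.F ran from 2.57 to 3.26 and moved by more than 1 SD under 3 alternatives, to 2.93 with scaling between arrays, 2.92 with background subtraction and no normalization, and 3.26 with the negative controls subtracted. The last 2 were chosen after seeing the data, and background subtraction without normalization moved the median of all genes to -0.20. Among values of the 4 probes of Contig17143, 33 stayed within 1 SD and 3 moved further. TMIRS_107_G05.F has 1 probe, whose value is that of the gene, and is not in this count.

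Counts over all genes moved more. Against 895 higher genes, limma called 512 with median centring, 568 with background subtraction and no normalization, 595 with negative controls subtracted, and 547 with channels as single samples. Against 625 lower genes, the same settings called 191, 323, 283 and 402, and leaving out 1 array gave 447 to 1212, the highest without replicate 1. Scaling between arrays and the F-test called 0 genes higher and 0 lower (2699 and 1811 genes had an unadjusted p under 0.05). Both called 0 of the 3 other genes described as lipid transfer proteins, against 2. Of the very-long-chain lipid and cuticle genes both called 0 higher, against 2, and 0 lower, against 4. Of the very-long-chain lipid list, 1 was higher without background correction, with the median of probes and with channels as single samples, and 1 to 2 when an array was left out (1 without replicate 2 or replicate 3). The cause was not tested. The calls for Contig3155, Contig16792, Contig219, Contig2915 and TMIRS_036_H05.F were lost in 2 of 13 alternatives each, with no change of sign. A fit on signals processed by the scanner software was not run. Each array carries both stages, so the ratios are paired by array throughout, except with channels as single samples.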
